A study of Mus musculus and Sus scrofa with 18 samples.

Results

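The cytosolic ribosomal protein genes encode the proteins of the large and small subunits of the ribosomes that translate mRNA in the cytoplasm. Members were taken from the mouse count table by symbol: Rpl or Rps followed by a number and at most one of the endings a, x, l or al, together with Rplp0, Rplp1, Rplp2 and Rpsa. Pseudogenes were left out. The rule found 81 of 55357 genes, 50 of the large and 31 of the small subunit. Ribosomal proteins or close paralogs whose symbols have another form, such as Rps3a1, Rpl22l1, Rpl7l1 and Fau, fall outside it, and these 4 are described separately.

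The libraries came from the striatum of 9 mice, 1 library per animal and 3 animals in each of 3 groups. WT mice received AAV9 with a control gRNA and no CasRx. Untreated HD mice were heterozygous HD 140Q-KI animals, in which the first exon of Htt was exchanged for its human counterpart carrying a long CAG repeat, and received AAV9-CasRx with the control gRNA. Treated HD mice were of the same line and received AAV9-CasRx with the HTT gRNAs. CasRx is an RNA-cutting Cas13d nuclease, expressed here from the ubiquitous CAG promoter. All mice were injected into the striatum at 6 months of age and the tissue was taken 6 weeks later. Since only the HD groups received CasRx, a difference from WT covers the knock-in allele and the nuclease vector, which cannot be told apart.

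A ribosome is built in the nucleolus from ribosomal RNA and one copy of most ribosomal proteins, so the genes are expressed together in nearly every cell. In vertebrates their mRNAs usually start with a run of pyrimidines, the 5′ terminal oligopyrimidine (TOP) tract, through which mTORC1 and the RNA-binding protein LARP1 control their translation. Control of translation acts on ribosome loading, which is not read by counts of mRNA. The proteins line the mRNA channel and the exit tunnel, form the stalk that recruits elongation factors, or hold the 5S ribosomal RNA.

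The following 30-base windows, from RefSeq on GRCm38.p6, are centred on an annotated start of members whose levels are described further on. They are shown because the TOP tract is a usual sequence feature of these mRNAs, and the capitals mark the longest run of C and T on the transcribed strand.
Rpl31, chr1:39367836-39367865, plus strand: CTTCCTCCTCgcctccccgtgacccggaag
Rps15a, chr7:118116133-118116162, minus strand: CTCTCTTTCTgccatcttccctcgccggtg
Rps6, chr4:86857353-86857382, minus strand: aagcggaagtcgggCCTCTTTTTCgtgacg
Rplp2, chr7:141447636-141447665, plus strand: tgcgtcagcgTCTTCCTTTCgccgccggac
Rpl15, chr14:18270972-18271001, minus strand: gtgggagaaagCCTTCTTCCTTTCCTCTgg
Rpl9, chr5:65391417-65391446, minus strand: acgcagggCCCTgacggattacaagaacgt
Rpl37, chr15:5116598-5116627, plus strand: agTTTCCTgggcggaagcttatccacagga
The first 5 windows hold a run of 10 or more C or T, and those of Rpl9 and Rpl37 hold shorter ones. In Rpl31 and Rps15a the run fills the first 10 bases of the window, so it lies before the annotated start. Of windows not printed, the longest runs were 4 to 7 at the starts of Rps19, 4 and 5 at those of Rpl22 and 9 at that of Rps27. RefSeq promoter entries were available for 61 of the 81 members, with 73 starts. A run of at least 8 C or T within 15 bases of the start, searched on the transcribed strand only, was present at 27 of these 73 starts (37.0%) and at 12% of all 32851 starts in the table. An annotated start can lie some bases from the one used in striatum, so a missing run says only that these letters are not in this window.

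Total counts ranged from 27184356 to 32102121 per mouse. All 10 striatal projection neuron markers were detected, and their summed level was 6789 to 8786 CPM in WT mice, 2066 to 2448 CPM after CasRx with the control gRNA and 3261 to 3295 CPM after CasRx with the HTT gRNAs, where CPM is the count scaled to a common library size by edgeR's TMM method. Several libraries stood apart in tissue makeup. The 7 choroid plexus markers summed to 3767 CPM in WT 2, 1270 CPM in treated 3 and 1213 CPM in WT 3, against 36.3 to 239 CPM in the other mice. The 10 microglia markers reached 1343 CPM in untreated 3, against 379 to 426 CPM in WT mice and 507 to 860 CPM in the other HD mice. Other sums differed between groups as well. The 5 cortical excitatory neuron markers summed to 196 to 858 CPM in WT, 975 to 1155 CPM in untreated and 664 to 729 CPM in treated mice. The 8 B and plasma cell markers summed to 13.9 to 40.5, 99.0 to 567 and 384 to 741 CPM in the same order. Y-linked genes held 3435 to 5005 counts in the 3 WT mice and untreated 1 and none in the other 5 mice, so in the comparison of treated with WT mice the group and the presence of Y-linked counts cannot be told apart. The part of these differences in the results below was not tested beyond the values given beside them.

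Ribosomal protein genes held a similar share of the counts in every group. The members together took 1.19%, 1.31% and 1.12% of the counts in the WT mice, 1.12%, 1.12% and 1.31% in the untreated mice and 1.19%, 1.28% and 1.20% in the treated mice. The ranges of the 3 groups overlapped, and WT 2 and untreated 3 were the highest of the 9 mice. The group means were 1.21% ± 0.0949 for WT, 1.18% ± 0.112 for untreated mice and 1.22% ± 0.0508 for treated mice (SD, n = 3). Expressed as CPM, the 50 large-subunit genes summed to 7818 ± 507 for WT, 7416 ± 624 for untreated mice and 7588 ± 291 for treated mice. The 31 small-subunit genes summed to 4589 ± 352, 4321.5 ± 451 and 4440.25 ± 226 CPM in the same order. Their ratio stayed between 1.68 and 1.74 in every mouse. In bulk tissue, fewer cells of a type and less RNA per cell cannot be told apart.

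**Figure D1:**
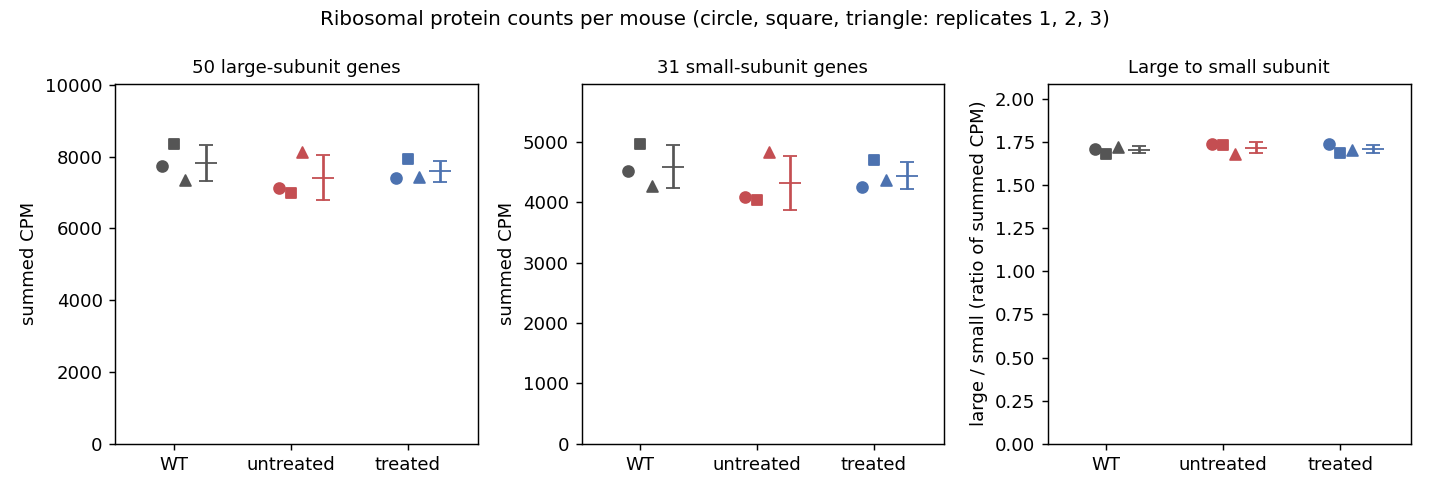
Summed level in CPM of the 50 large-subunit genes (left) and the 31 small-subunit genes (middle), and their ratio (right), in each mouse of the 3 groups; the bars give the mean and SD of 3 mice. The groups overlap in all 3 panels, and the ratio lies between 1.68 and 1.74 throughout.

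Of the 81 members, 79 had enough counts to be tested. Rpl10l, a retrogene copy of Rpl10 known from the testis, had 0 counts in every mouse, which allows up to 3 counts per library. Rpl39l, the germ cell copy of Rpl39, had between 0 and 6 counts per mouse. Rpl3l, the copy of Rpl3 known from skeletal muscle and heart, had 5, 30 and 28 counts in the WT mice, 12, 16 and 18 in the untreated mice and 21, 18 and 22 in the treated mice. WT 1 was the lowest mouse for this gene and the groups overlapped. Rps27l, a p53-responsive copy of Rps27, was expressed at 4.61 to 7.23 CPM over all 9 mice. Rps4l, a copy of Rps4x, meets the symbol rule but is annotated as a pseudogene and is no member. It had 14.4, 14.9 and 13.6 CPM in WT mice, 10.3, 12.4 and 13.9 CPM in untreated mice and 11.6, 12.4 and 10.6 CPM in treated mice. All treated mice lay below the WT mice, with a log2 fold change of -0.30 (adjusted p = 0.213 by edgeR, unadjusted P under 0.05). The other 77 tested members had mean levels between 29.8 CPM for the X-linked Rpl39 and 401 CPM for Rpl3, a large-subunit protein whose loop reaches toward the peptidyl transferase centre. CPM was not divided by transcript length, so no order between genes is read from it.

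The abundant members moved together from mouse to mouse. The within-group SD of log2(CPM + 0.5) had a median of 0.120 over the 77 members, against 0.118 over the 6706 genes at least as abundant as the lowest of these members. After the summed member level was subtracted, the median SD was 0.0577. The within-group deviations of a member had a median Pearson r of 0.92 with the mean of the other members over 9 mice, as a description, since all members of a mouse share its library and its depth. This r was above 0 in 76 of the 77 members and above 0.8 in 61. Rpl24 was the exception, with an r of -0.13, and had 132, 125 and 144 CPM in the WT mice, where WT 2 was its lowest. WT 2 had the highest level of its group in 68 of 79 tested members, untreated 3 in 78 and treated 2 in 73. The 5 other genes whose level followed the members most closely over the 9 mice, among 10507 candidates, were Setd6 (r = 0.96), Rcc1 (0.95), Galnt2 (0.95), Adprhl2 (0.95) and Dnm2 (0.94).

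**Figure D2:**
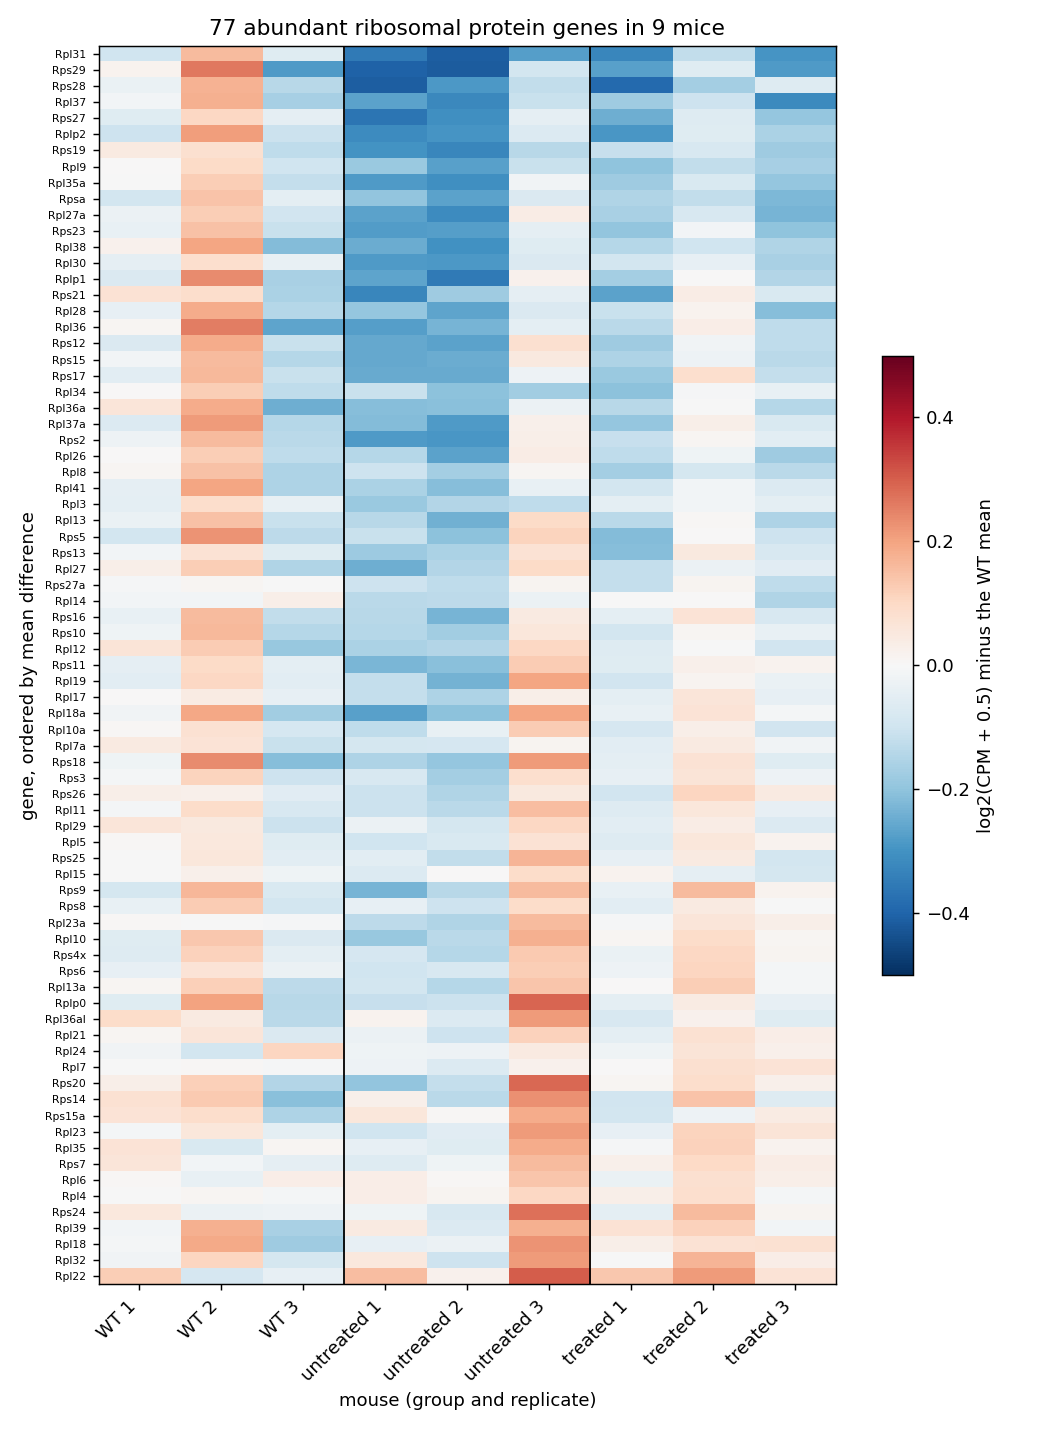
Level of the 77 abundant ribosomal protein genes in each mouse, as log2(CPM + 0.5) minus the WT mean of the gene; rows are genes ordered by their mean difference, columns are mice, and black lines separate the groups. WT 2 and untreated 3 are high, and WT 3, untreated 1, untreated 2 and treated 1 low, for most rows at once.

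The comparison of untreated HD mice with WT mice asks what the knock-in allele together with CasRx did to these genes, since both groups received the control gRNA. The groups also differed in that all 3 WT mice but only untreated 1 of the untreated mice had Y-linked counts. Member levels in untreated mice were close to WT: 61 of the 79 tested members had a lower estimate and 18 a higher one. The median log2 fold change was -0.07, against 0.02 over all 19463 tested genes. One member, Rpl31, passed an adjusted p under 0.05 (edgeR quasi-likelihood test with Benjamini-Hochberg adjustment over all tested genes), where 10.7% of all tested genes passed. At an unadjusted P under 0.05, 8 members were lower and none was higher, against 13.7% and 15% of all tested genes. The 8 were Rpl31, Rps19, Rpl30, Rpl9, Rps27, Rpl37, Rpl3 and Rps28. No member had a fold change of at least 2 with P under 0.05, the definition of a DEG in the results of the study, against 8.16% of all tested genes, and none did with P under 0.01, as its methods state. DESeq2 called 2 members at an adjusted p under 0.05, Rpl31 and Rps19. The 95% interval of the fold change lay within 1.5-fold in either direction for 77 of 79 members, a margin chosen after the values were seen, and Rpl3l and Rps29 were the exceptions. It did so for 8652 of the 19463 tested genes. The median SE was 0.095 for the members and 0.167 for all tested genes. The levels of the 2 groups did not overlap in 7 members, 6 lower (Rpl31, Rps19, Rpl30, Rpl9, Rpl3 and Rpl14) and 1 higher (Rpl4), while 30.1% of all tested genes did not overlap.

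The median moved with the scaling and with single mice. With library sizes without TMM factors it was -0.03, with 46 of 79 members lower, against 0.07 over all tested genes. The median of the members lay below that of all tested genes under both scalings. A scaling moves all genes of a library alike, so it gives no separate support for this difference. Without WT 2 the median of the members was -0.02, against 0.02 over all tested genes, with 46 of 79 members lower. Without untreated 3 it was -0.16, against 0.0045, with 74 of 79 members lower. WT 2 is the library with the most choroid plexus counts and untreated 3 the one with the most microglia counts. WT 3 and treated 3, with choroid plexus sums of 1213 and 1270 CPM, had member shares of 1.12% and 1.20%. Treated 2, the highest of its group in 73 tested members, had a choroid plexus sum of 39.1 CPM. The part of tissue makeup in these medians was not tested. With the share of Y-linked counts as a covariate the median was -0.16.

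Rpl31, a protein at the rim of the exit tunnel, had 191, 229 and 196 CPM in the WT mice, 160, 154 and 169 CPM in the untreated mice and 163, 188 and 167 CPM in the treated mice. All 6 HD mice lay below the 3 WT mice. The log2 fold change was -0.35 in untreated mice against WT (SE 0.089, adjusted p = 0.0368 by edgeR), -0.25 in treated mice against WT (adjusted p = 0.145) and 0.10 in treated against untreated mice (adjusted p = 0.995). The log2 fold change in untreated mice stayed between -0.41 and -0.26 in all 20 settings tried, and the call was kept in 8 of them. It was lost when WT 2, WT 3, any of the untreated mice, treated 1 or treated 3 was left out, with values from -0.26 without WT 2 to -0.39 without untreated 3.

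Rps19, a small-subunit protein that is mutated in Diamond-Blackfan anaemia, had 86.0, 88.2 and 76.3 CPM in WT mice, 67.6, 66.4 and 75.7 CPM in untreated mice and 77.0, 78.8 and 73.7 CPM in treated mice. Its untreated and WT levels did not overlap, by a small gap between untreated 3 and WT 3, and the treated levels lay across both groups. The log2 fold change was -0.26 in untreated against WT mice (SE 0.079, adjusted p = 0.0673 by edgeR) and 0.13 in treated against untreated mice (adjusted p = 0.943). Rpl30, a large-subunit protein, had a log2 fold change of -0.21 in untreated against WT mice (adjusted p = 0.107).

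Among the members with higher estimates, the smallest P was that of Rpl22. This gene, which encodes a large-subunit protein and has a paralog in Rpl22l1, had 73.5, 63.5 and 65.5 CPM in WT mice, 75.1, 68.4 and 83.3 CPM in untreated mice and 74.1, 78.1 and 70.7 CPM in treated mice. Its groups overlapped and the log2 fold change in untreated mice was 0.16 (adjusted p = 0.26 by edgeR). Rps15a and Rpl6 had the next smallest P of this direction, with log2 fold changes of 0.08 and 0.06 (adjusted p = 0.562 and 0.586).

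**Figure D3:**
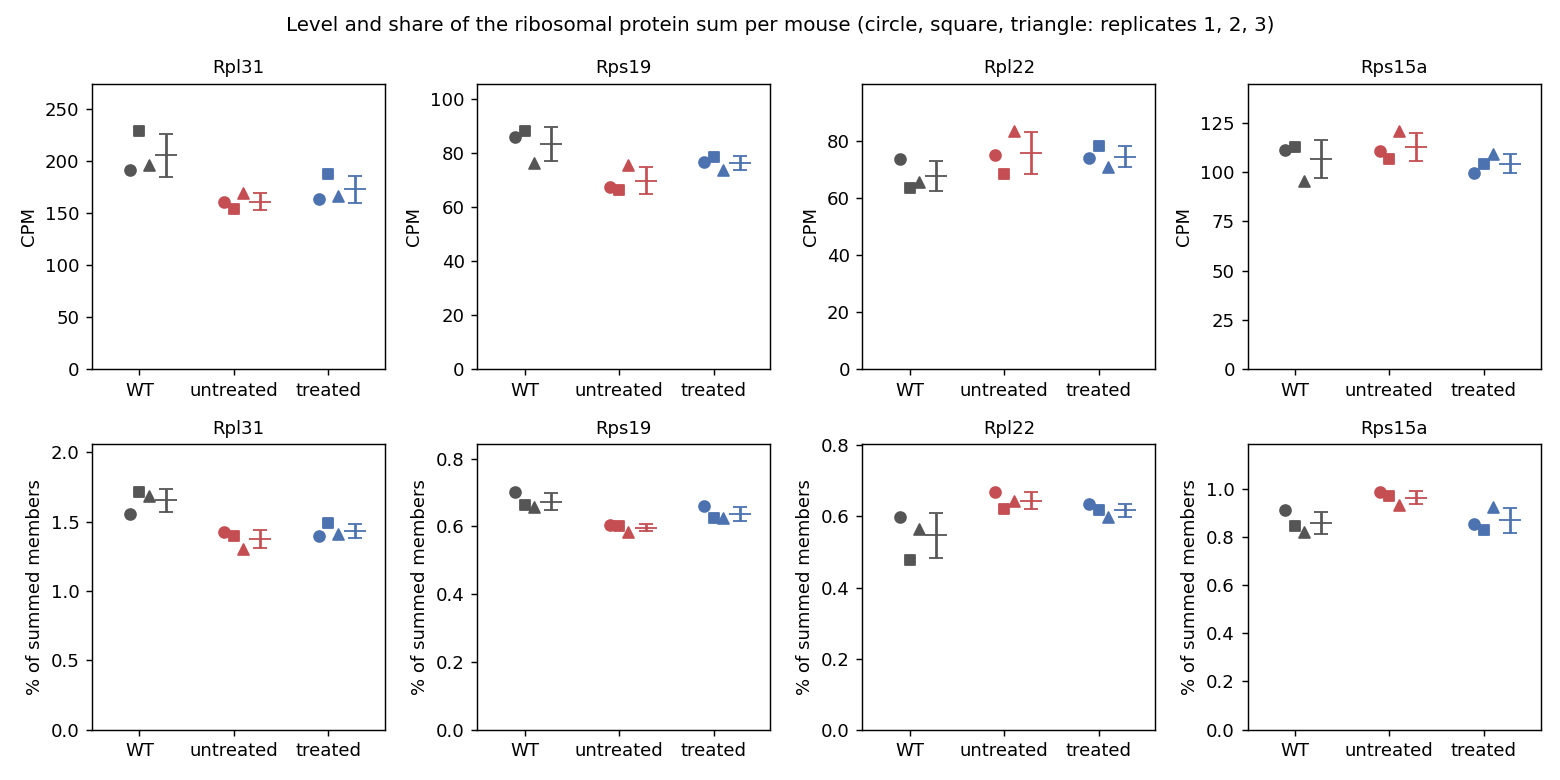
Level in CPM (top) and share of the summed ribosomal protein level in percent (bottom) of Rpl31, Rps19, Rpl22 and Rps15a in each mouse; bars give the mean and SD of 3 mice. All 6 HD mice are below the WT mice for Rpl31 in both rows, while for Rpl22 the untreated mice are above WT only in the share.

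By role, the stalk proteins that recruit elongation factors had log2 fold changes in untreated against WT mice of 0.03 for Rplp0, -0.20 for Rplp1 and -0.23 for Rplp2, and none of the 3 passed the test. Rplp2 had 78.5, 97.4 and 78.3 CPM in WT and 67.6, 68.6 and 80.3 CPM in untreated mice. The highest untreated mouse lay within the WT range. The proteins of the 5S particle, Rpl5 and Rpl11, which also bind Mdm2 when ribosome assembly fails, both had a log2 fold change of -0.03. Rps6, the substrate of S6 kinase, had 194, 210 and 196 CPM in WT and 186, 189 and 218 CPM in untreated mice, with a log2 fold change of -0.02 (adjusted p = 0.917 by edgeR). Rps27a, made as a fusion with ubiquitin, had a log2 fold change of -0.07, and Rpsa, the laminin receptor precursor, one of -0.18 (adjusted p = 0.196). Of 9 proteins of the exit tunnel and its rim, 1 fell, Rpl31, and none rose, where 10.7% of all tested genes were called in either direction. Of 5 proteins at the mRNA exit and 2 at the mRNA entry, none passed the test. The X-linked members Rpl10, Rpl36a, Rpl39 and Rps4x had log2 fold changes from -0.16 to 0.05, and none passed.

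The comparison of treated HD mice with WT mice asks how far treated tissue lay from WT. No member passed an adjusted p under 0.05 by edgeR or by DESeq2, against 3.69% of all tested genes by edgeR, and the smallest adjusted p was 0.145, for Rpl31. The median log2 fold change was -0.04, with 56 of 79 estimates below 0, against 0.0038 over all tested genes. The sign of the median depended on the scaling: with library sizes without TMM factors it was 0.02, with 35 of 79 estimates below 0, against 0.06 over all tested genes. Both scalings put the median of the members below that of all tested genes, but a scaling moves all genes of a library alike. Rpl31 and Rpl9 had an unadjusted P under 0.05, both lower, and no member was higher, where 11.6% of all tested genes were lower and 9.78% higher. No member met the DEG definition, against 5.22% of all tested genes. The groups did not overlap in 4 members, all lower (Rpl31, Rpl9, Rpsa and Rps27), against 28.6% of all tested genes. The 95% interval lay within 1.5-fold for 77 of 79 members, with Rpl3l and Rps27l outside, and for 9204 of the 19463 tested genes. Without WT 2 the median was 0.022, above the 0.015 over all tested genes, and only 27 of 79 estimates were below 0. With the share of Y-linked counts as a covariate it was -0.18, a value that rests on untreated 1 as the one HD mouse with Y-linked counts.

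Rpl9, a large-subunit protein near the base of the stalk, had 245, 262 and 229 CPM in WT mice, 215, 203 and 226 CPM in untreated mice and 213, 225 and 218 CPM in treated mice. All HD mice lay below the WT mice, by a small gap. Its log2 fold change was -0.17 in treated mice (adjusted p = 0.228 by edgeR) and -0.19 in untreated mice (adjusted p = 0.12), both against WT. Rpl37 had log2 fold changes of -0.20 and -0.24 in the same order, without passing the test. Of the members estimated higher in treated than in WT mice, those with the smallest P were Rpl22, Rps27l and Rpl7, with log2 fold changes of 0.14, 0.21 and 0.05 and adjusted p of 0.409, 0.598 and 0.659.

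The comparison of treated with untreated HD mice asks what the HTT gRNAs did, since both groups carried the allele and CasRx. The groups also differed in that untreated 1 had Y-linked counts and no treated mouse did, and in the microglia counts of untreated 3. No ribosomal protein gene passed an adjusted p under 0.05 by edgeR or DESeq2, none had an unadjusted P under 0.05 and none met the DEG definition, where 0%, 5.5% and 0.771% of all tested genes did by edgeR. The smallest adjusted p of a member was 0.923. The median log2 fold change was 0.04, with 63 of 79 estimates above 0, against -0.01 over all tested genes. For 78 of 79 members the 95% interval lay within 1.5-fold, Rpl3l being the exception, and for 10587 of the 19463 tested genes. Without untreated 3 the median was 0.12 and with the Y-linked covariate it was -0.0046.

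Rpl3 was the one member whose treated and untreated levels did not overlap, against 15.8% of all tested genes. It had 404, 445 and 407 CPM in WT mice, 367, 377 and 383 CPM in untreated mice and 404, 415 and 404 CPM in treated mice. The treated mice lay within the WT range and above all untreated mice. The log2 fold change was 0.12 in treated against untreated mice (95% interval -0.03 to 0.26, adjusted p = 0.923 by edgeR) and -0.15 in untreated against WT mice (adjusted p = 0.157). By P, the next members estimated higher were Rps19 (0.13) and Rpl30 (0.11), and the first estimated lower were Rps15a (-0.11), Rpl36al (-0.10), an autosomal copy of Rpl36a, and Rpl15 (-0.05). The comparisons share groups, so the estimates of a gene in the 3 of them are not independent.

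**Figure D4:**
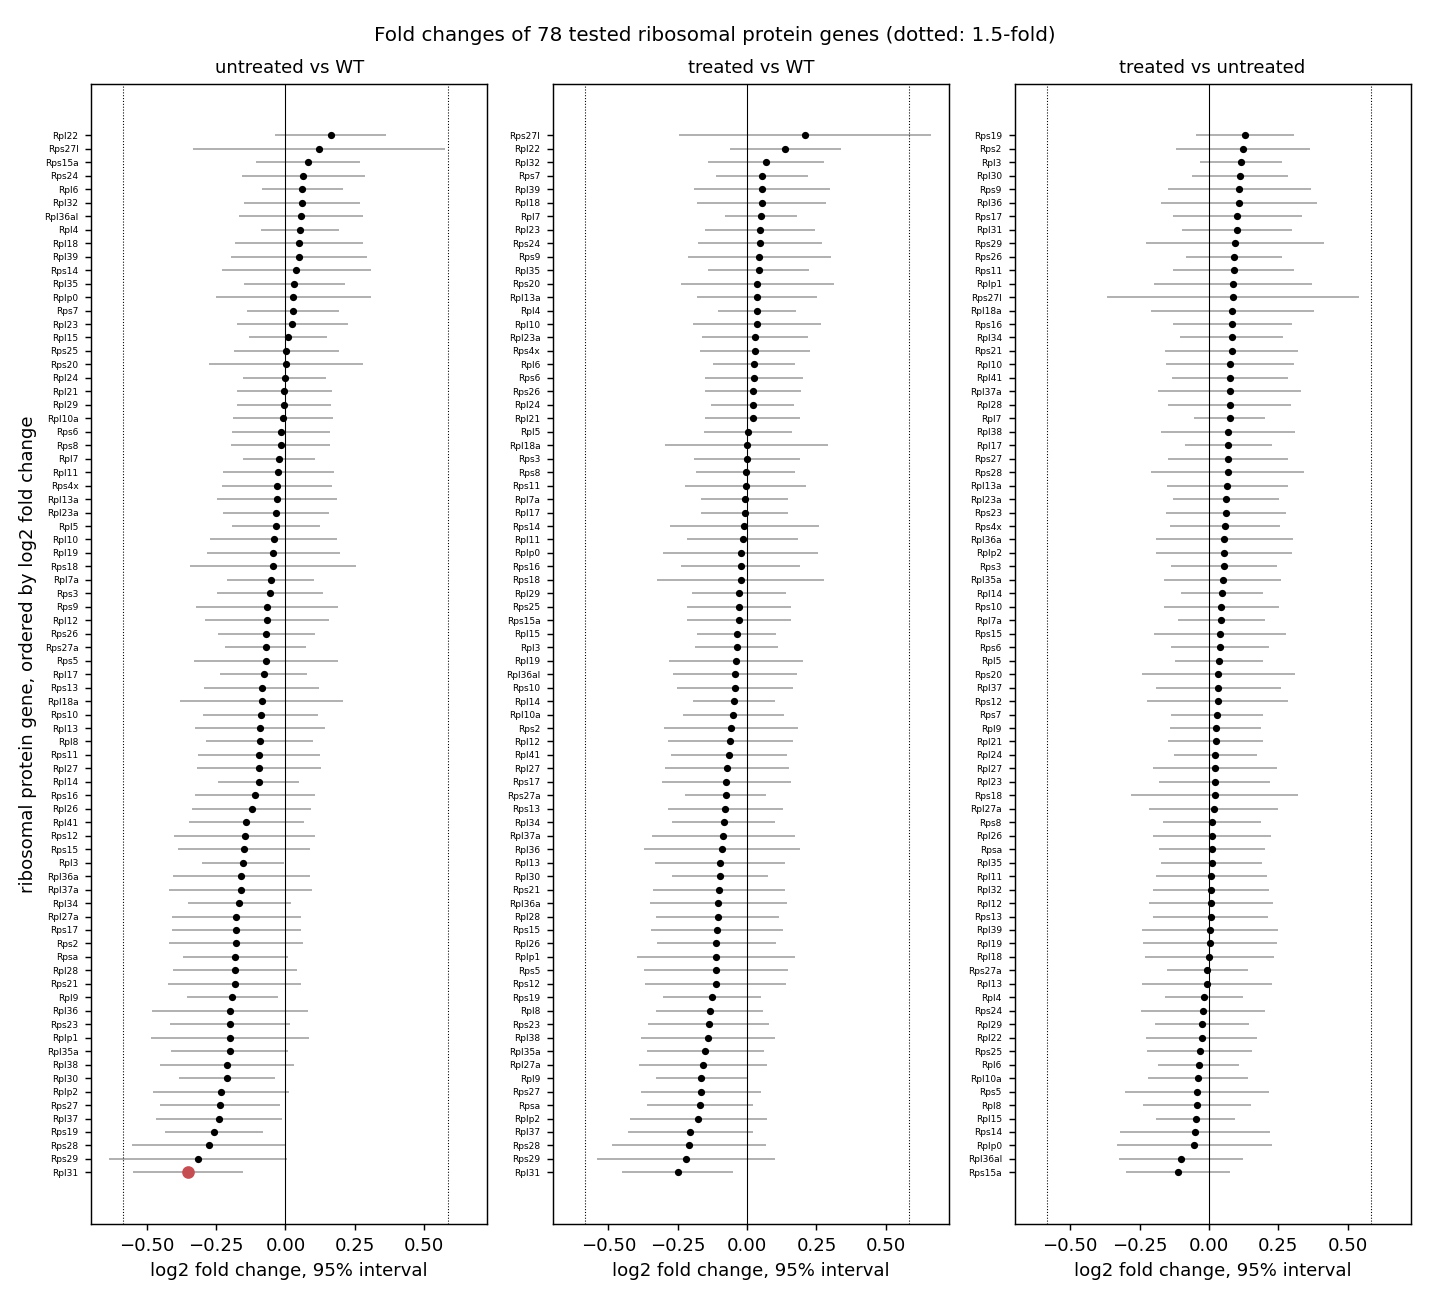
Log2 fold change with its 95% interval for 78 tested ribosomal protein genes in the 3 comparisons; Rpl3l, with under 1 CPM in most mice, is left out for its wide interval. The large red point is Rpl31 in untreated against WT mice, the one member with an adjusted p under 0.05, and most intervals stay inside the dotted lines at 1.5-fold.

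The level of a member was also expressed as its share of the summed ribosomal protein level of the mouse. In untreated against WT mice, 25 of 77 members (32.5%) had shares that did not overlap, 13 higher and 12 lower, against 25.4% of all tested genes expressed relative to the same sum. Rpl31 took 1.56%, 1.71% and 1.69% of the sum in WT and 1.43%, 1.39% and 1.30% in untreated mice, so the highest untreated mouse was below the lowest WT mouse. Rps15a took 0.909%, 0.847% and 0.819% in WT mice, 0.986%, 0.968% and 0.931% in untreated mice and 0.854%, 0.826% and 0.925% in treated mice. The untreated mice were above both other groups. In treated against WT mice 18 of 77 members (23.4%) did not overlap, against 25.6% of all tested genes. In treated against untreated mice 12 of 77 (15.6%) did not, against 10.7% of all tested genes. With the summed member counts as library size, edgeR called no member in any comparison, and 4, 1 and 0 members had an unadjusted P under 0.05 in untreated against WT, treated against WT and treated against untreated mice.

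Rps3a1, Rpl22l1, Rpl7l1 and Fau, which lie outside the symbol rule, had no unadjusted P under 0.05 in any comparison. Rpl22l1, the paralog of Rpl22, had a log2 fold change of -0.14 in untreated against WT mice (adjusted p = 0.381 by edgeR), and Rps3a1 one of 0.0040. Reads of ribosomal protein genes can also fall on their processed pseudogenes. The 303 genes with ribosomal protein pseudogene symbols held counts equal to 1.68% to 1.92% of the member counts over the 9 mice.

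Genes that make or drive ribosomes were compared beside their products. Of 54 ribosome biogenesis genes, 3 fell and none rose in untreated against WT mice, where 10.7% of all tested genes were called in either direction. In treated against WT mice 1 fell and none rose, where 3.69% were called. Of the 19463 tested genes, 1188 fell and 892 rose in untreated mice, and 542 fell and 176 rose in treated mice, both against WT. Nhp2, a protein of the H/ACA particles that guide pseudouridylation of ribosomal RNA, fell by 0.48 on the log2 scale in untreated mice (adjusted p = 0.0109 by edgeR) and by 0.39 in treated mice (adjusted p = 0.0394). Rrp1b and Utp4 fell by 0.42 and 0.30 in untreated mice (adjusted p = 0.0311 and 0.0428). Of 12 genes of RNA polymerase I and its factors, 1 fell and none rose in each comparison with WT, against the same 10.7% and 3.69%. It was Ubtf, the upstream binding factor that keeps ribosomal DNA open, which fell by 0.43 in untreated mice (adjusted p = 0.00258) and by 0.39 in treated mice (adjusted p = 0.00798). Of 39 translation initiation factors, 2 fell and 1 rose in untreated against WT mice, where 10.7% of all tested genes were called. In treated against WT mice 1 rose and none fell, where 3.69% were called. Eif1 and Eif4a1 fell by 0.38 and 0.26 and Eif4g3 rose by 0.34 in untreated mice (adjusted p = 0.00856, 0.0261 and 0.0274 by edgeR). Eif2s3x rose by 0.63 in treated mice (adjusted p = 0.0485). Eif2s3x is X-linked and has a Y-linked copy, and the treated and WT mice differ in Y-linked counts. None of 10 elongation factors, 11 other mRNAs with a TOP start or 18 genes of mTORC1, S6 kinase and TOP control passed in any comparison. At an unadjusted P under 0.05 in untreated against WT mice, 2 of the 11 other TOP mRNAs were higher and 3 lower, and 1 of the 18 control genes was higher and 4 lower, where 15% of all tested genes were higher and 13.7% lower. The smallest P among the TOP mRNAs were those of Ybx1, Hnrnpa1 and Vim, with log2 fold changes of -0.43, -0.20 and 1.27. Vim had 165 CPM in untreated 3, the mouse with the most microglia counts, against 40.6 and 45.5 CPM in the other untreated mice. Among the control genes Tsc1 had the smallest P, with a log2 fold change of -0.26 (adjusted p = 0.0504 by edgeR). No gene of these lists passed in treated against untreated mice.

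The 78 mitochondrial ribosomal protein genes, which build the separate ribosome of mitochondria, had the same median as the cytosolic members in untreated against WT mice, -0.07. Of the 78, 1 fell and none rose, against 10.7% of all tested genes called in either direction. It was Mrpl44, which fell by 0.34 on the log2 scale (adjusted p = 0.0425 by edgeR). In treated against WT mice the median of the 78 genes was -0.08, against -0.04 for the cytosolic members. In treated against untreated mice it was -0.0034, against 0.04. The difference between the 2 families was not tested.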

How the data were processed

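Striatal RNA of 9 mice was analysed; the pig libraries of the series were not analysed here. The authors primed 3′ mRNA libraries with oligo-dT and deposited raw counts per Ensembl gene, 1 column per mouse, without normalization. The paper names STAR for alignment and counting, whereas the submitters' processing notes list Trimmomatic 0.39, FastQC 0.11.9, HISAT2 2.2.1 and featureCounts 2.0.1, and the mouse build is not given in the sources used here. How reads shared with pseudogenes were assigned is not given either. Symbols came from GENCODE M21 and matched 52081 of 55357 genes. The start windows came from RefSeq (GRCm38.p6).

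Counts were tested in R 4.3.3 with edgeR 4.0.16: filterByExpr with the group, TMM, glmQLFit on all 9 libraries (6 residual degrees of freedom among mice) and glmQLFTest, with Benjamini-Hochberg adjustment over all 19463 tested genes. DEGs were defined by P under 0.05 without adjustment plus a change of 2-fold or more, following the paper's results section; its methods section sets the limit at 0.01. Standard errors were obtained from the log2 fold change and its F statistic, and intervals are 95%. DESeq2 1.42.0 was an alternative. P-values rest on the spread between mice within groups of 3, estimated from all 9 libraries together and with the spread of other genes taken into account. The tests were tried on simulated data. Figures used matplotlib 3.10.9 in Python 3.11.15.

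The members and the gene lists were chosen with earlier results of these data known, so no test over the list is given. Named members are, per comparison, the 3 with the smallest P in each direction, the members with a fixed role, the separate paralogs and those with the highest and lowest mean CPM. Of each other list, up to 3 genes with the smallest P were named, and the 5 non-members most correlated with the members. Rpl24, Rpl4, Rpl14, Rps27, Rps28 and Rps29 were named after their values were seen. Same-numbered mice of different groups were different animals, with correlations of their deviations from -0.11 to 0.31, so the numbers were not taken to pair them. Alternatives were other scalings, filters, tools, fits and thresholds, a replicate block, a covariate for Y-linked counts and each mouse left out. The summed member counts as library size were added after seeing the data. One gene of the lists, no member, is not reported here.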

Additional observations from a re-analysis of the deposited data

How the results depend on the processing

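The Rpl31 call in untreated against WT mice was the result most open to the processing. The count of members with an adjusted p under 0.05 in that comparison, 1 in the fit reported, was 0 with library sizes without TMM factors, without an expression filter, in a fit of only the compared groups, with the Y-linked covariate and with the summed member counts as library size, and 2 with DESeq2; an unadjusted P under 0.05 gave 8. Leaving out 1 mouse at a time gave 0 to 1, and it was 0 without WT 2, each untreated mouse, treated 1 or treated 3; without WT 3 the 1 called member was Rps19, not Rpl31. The number of genes called over all tested genes also changed between settings. It was 892 higher and 1188 lower in the fit reported and 1773 and 1700 with DESeq2. It was 326 and 770 without an expression filter, 189 and 537 in the fit of only the compared groups and 90 and 367 with the Y-linked covariate. Library sizes without TMM factors gave 1147 and 922, and the summed member counts 915 and 540. The cause of the losses of the Rpl31 call was not tested. In treated against WT mice an unadjusted P under 0.05 gave 2 in place of 0. With the replicate block, which assumes that same-numbered mice are paired, the count in untreated against WT mice was 1 and the median log2 fold changes were -0.07, -0.04 and 0.04 in the order untreated against WT, treated against WT and treated against untreated; it changed no call. Library sizes without TMM factors gave medians of -0.03, 0.02 and 0.05 in the same order, and the summed member counts as library size, which centre the members, gave 0.0075, 0.0045 and 0.0054. The median in treated against WT mice moved from -0.04 to -0.18 with the Y-linked covariate, and Rps27l turned from 0.21 to -0.28. Leaving out 1 mouse gave medians of -0.16 to -0.02, -0.08 to 0.02 and 0.0092 to 0.12 in the same order. The treated share of 1.22% moved to 1.32% of counts outside mitochondrial genes and to 1.32% outside the 10 most abundant genes. The share with ribosomal proteins outside the symbol rule added was not run. No member met the DEG definition under any alternative.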
